A study of Rattus norvegicus with 2 samples.

Results

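The genes described are enzymes of cholesterol synthesis, given by a rule that lists 8 gene symbols: Hmgcs1, Fdft1, Fdps, Idi1, Sqle, Cyp51, Lss and Dhcr7. A probe set belonged to the group if the platform annotation gave it 1 of these symbols and no other. By this rule 7 of the 8 genes were found, on 20 probe sets, out of 4736 genes named by a single symbol on the whole array. For Hmgcs1 no such probe set was named, and it is not analysed here. The group had been labelled as genes of cholesterol synthesis and of the uptake of low-density lipoprotein, but each of its members is an enzyme of cholesterol synthesis.

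The RNA came from small mesenteric arteries of rats, of the first and second branching order, with 1 pool of 20 rats for each of 2 groups. In one group, called the ligated pool here, the portal vein had been partly ligated, which gives portal hypertension of the prehepatic kind, and the control rats of the sham pool had a sham operation. The labels give no strain, sex, age or time between operation and sampling. A single Affymetrix RG_U34A array was used for each pool, so no test was possible and no value has a replicate error. A difference between the pools can come from the operation, from the pools or from the arrays, and fewer cells of a type and less RNA per cell cannot be told apart.

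Cholesterol is built from acetyl-CoA in the cytosol and endoplasmic reticulum. The mevalonate steps give isoprenoid units, these are joined to farnesyl diphosphate and then squalene, and squalene is oxidised, closed to lanosterol and trimmed to cholesterol. Most enzymes of this chain are controlled together by the transcription factor encoded by Srebf2, which is released when membrane sterol is low, while the product of Srebf1 acts mainly on fatty acid synthesis. Both pathways start from cytosolic acetyl-CoA, and the comparison asks whether the sterol branch and the fatty acid branch differed alike between the pools.

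The cholesterol synthesis genes of the group with a value each differed by less than 1.5-fold between the pools, while several fatty acid synthesis genes differed by more. Over the 7 genes with a value the median log2 ratio of ligated over sham was -0.01, from -0.29 for Cyp51 to 0.42 for Dhcr7. None reached 1.5-fold in either direction. Of the 3351 genes with a value on the array, 3.13% were 1.5-fold higher or more, and 5.04% were lower by that factor or more. At these background shares a count of 0 among 7 genes does not set them apart from the array. In the fatty acid synthesis list 3 of 7 genes with a value were at least 1.5-fold higher, namely Scd, Acly and Me1, and 1, Slc25a1, was at least 1.5-fold lower. Of these, Acly and Slc25a1 feed both branches, so they do not set fatty acid synthesis apart from the sterol branch. Scd, Acly and Me1 were also known beforehand to be high on these arrays.

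Values are signal intensities as deposited, set to a floor of 330.9 where they were lower, and the ratio of a gene is the median over its probe sets above that floor in at least 1 pool. The measure of error used throughout is the scatter between probe sets of the same gene, which had an SD of 0.30 in log2 ratio over 1801 probe sets of 789 genes. This scatter holds none of the variation between rats. Of the 20 probe sets of the cholesterol synthesis genes, 16 lay above the floor in both pools, 1 in the sham pool only and 3 in neither. The 20 derive from 16 source sequences, because some carry a pair of overlapping probe sets, so they are not independent.

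As regulatory context, 3 promoter windows are shown, 1 each for a cholesterol synthesis gene of the group (Fdps), the sterol-responsive regulator gene Insig1 and the fatty acid synthesis gene Acly. Each runs from 250 bases before to 50 bases after the RefSeq start on the rat assembly GRCr8, on the minus strand, with matches to the searched letters in capitals. They lie at chr2:176804767-176805066, chr4:8057720-8058019 and chr10:85963582-85963881.
Fdps: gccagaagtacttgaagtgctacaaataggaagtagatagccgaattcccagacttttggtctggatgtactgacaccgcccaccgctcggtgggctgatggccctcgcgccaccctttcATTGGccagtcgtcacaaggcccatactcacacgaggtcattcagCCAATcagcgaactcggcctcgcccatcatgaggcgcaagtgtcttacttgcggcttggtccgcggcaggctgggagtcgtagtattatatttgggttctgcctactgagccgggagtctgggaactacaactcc
Insig1: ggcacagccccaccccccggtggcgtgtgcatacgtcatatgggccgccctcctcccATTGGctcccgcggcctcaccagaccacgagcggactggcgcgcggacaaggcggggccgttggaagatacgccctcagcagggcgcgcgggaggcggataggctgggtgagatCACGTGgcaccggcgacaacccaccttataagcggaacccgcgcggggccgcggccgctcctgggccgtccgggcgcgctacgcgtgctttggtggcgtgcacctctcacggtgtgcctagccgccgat
Acly: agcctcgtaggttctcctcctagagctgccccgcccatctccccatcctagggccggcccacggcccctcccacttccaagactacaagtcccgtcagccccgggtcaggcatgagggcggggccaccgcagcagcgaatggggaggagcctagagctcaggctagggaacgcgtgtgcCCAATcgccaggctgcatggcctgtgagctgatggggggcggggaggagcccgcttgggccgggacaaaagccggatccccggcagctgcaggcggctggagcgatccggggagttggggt
The letters searched on both strands were TCACNCCAC for the sterol regulatory element, CCAAT for the box bound by nuclear factor Y, and CACGTG for the E-box, none of which overlapped in these 3 windows. The Fdps window held CCAAT on each strand, at 130 and 85 bases before the start. The Insig1 window held CCAAT on the reverse strand and 1 E-box, and the Acly window held 1 CCAAT. Among the 6 genes of the rule with a window, Hmgcs1 included, 4 held CCAAT, against 37.5% of 33469 rat promoter windows, and none held the E-box, against 6.42%. The 9 letters of the sterol regulatory element were in none of the 6 and in 1.12% of all windows. Among 13 fatty acid synthesis genes with a window, 9 held CCAAT. Only exact matches were counted, so a site that varies from the searched letters would be missed. Such matches of letters say nothing about binding in the artery.

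Early in the chain, Idi1, which interconverts the activated isoprenoid units, gave 9806 intensity units in the sham pool and 9706 in the ligated pool. The pools were nearly level on this probe set, with a log2 ratio of -0.01. Its other probe set lay below the floor in both pools, at 276.8 and 273.8.

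Fdps makes farnesyl diphosphate, the branch point to sterols, ubiquinone, dolichol and prenylated proteins. Its probe sets had signals of 8328, 6111 and 2139 in the sham pool and 6572, 5195 and 2004 in the ligated pool. The sham pool was the higher one on all 3, with log2 ratios of -0.34, -0.23 and -0.09. The first pair comes from the same source sequence. The gene value of -0.23 is smaller than the SD of 0.30, but that SD is for single probe sets and not for a median over 3.

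Fdft1 encodes squalene synthase, the first enzyme committed to sterols. Its 4 probe sets, from 2 source sequences, had sham signals of 1631, 1395, 835.2 and 1011 and ligated-pool signals of 1946, 1166, 868.2 and 952. Here the pools crossed over, with log2 ratios of 0.25, -0.26, 0.06 and -0.09. The first pair shares its source sequence and still differed by 0.51. Over 470 such pairs of overlapping probe sets on the array, the SD of this difference was 0.39, and 13.0% of pairs were at least as far apart. The gene value was -0.02, and its sign turned under 4 of 9 alternative settings, quantile normalization and the loess among them.

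Sqle, the squalene epoxidase that carries out the first oxygenation, had 3873 in the sham pool and 4625 in the ligated pool on its only probe set. The ligated pool was 1.19 times as high, a log2 ratio of 0.26. Lss, which closes the ring to lanosterol, had 884.7 and 923.9 on its only probe set above the floor, a log2 ratio of 0.06. Its other probe sets lay below the floor in both pools, with 84.3 and 98.2 on one and 247.6 and 209.8 on the other. The direction of Lss was not settled, since its value came to -0.09 when the floor was set to the 20th percentile.

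**Figure D1:**
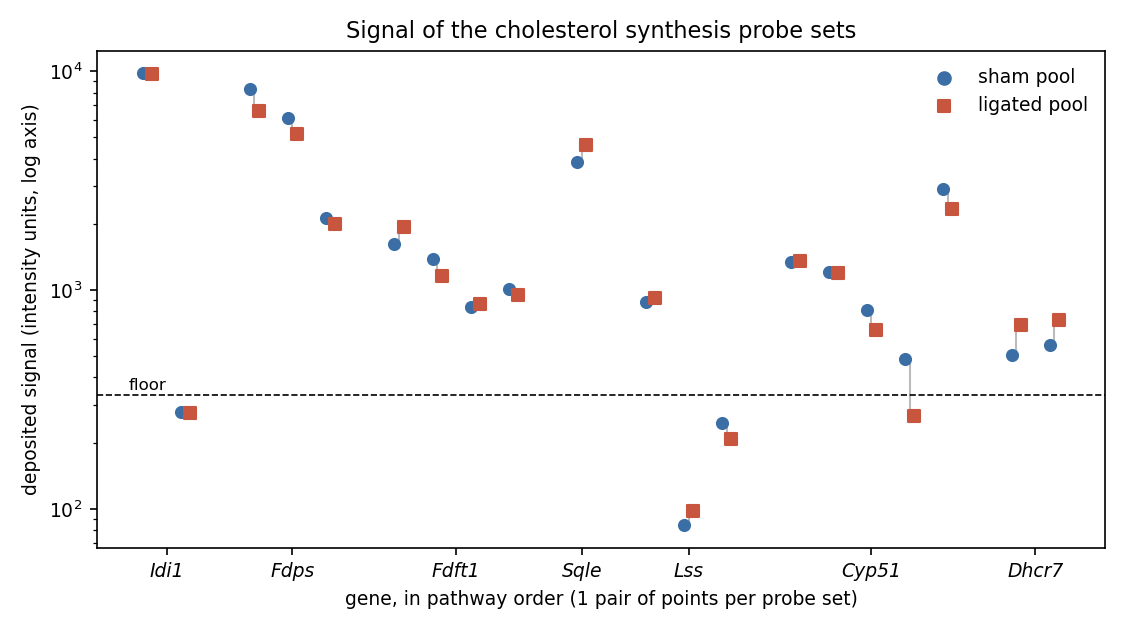
Deposited signal of each probe set of the cholesterol synthesis genes in the sham pool (circles) and the ligated pool (squares), on a log axis, with genes in pathway order and the floor of 330.9 as a dashed line. The pools are level for Idi1 and cross over between the probe sets of Fdft1, Fdps is lower and Dhcr7 higher in the ligated pool on each probe set, and 4 probe sets have at least 1 point under the floor.

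Cyp51, the lanosterol demethylase that starts the trimming of the ring, had the most probe sets. Those above the floor in both pools had sham signals of 1341, 1211, 808.8 and 2914 and ligated-pool signals of 1362, 1200, 660.8 and 2361. Both pools were level on the first pair, with log2 ratios of 0.02 and -0.01, and the sham pool was higher on the others, with -0.29 and -0.30. The remaining probe set was above the floor in the sham pool only, with 484.7 and 267.5, so that only a lower limit of its difference is known, a log2 ratio of -0.55 or further below 0. The gene value was -0.29, the lowest of the group, and ranged from -0.30 to -0.01 over the alternative settings.

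Dhcr7 encodes the reductase of the last step to cholesterol. It had signals of 503.7 and 692.2 on one probe set and 560.2 and 731.7 on the other, with the sham pool first. The ligated pool was higher on both, with log2 ratios of 0.46 and 0.39, and these are a pair on 1 source sequence. The gene value of 0.42, or 1.34-fold, was the highest of the group and below 1.5-fold, and it ranged from 0.36 to 0.50 over the 8 settings that gave a value. Its signals lay nearer to the floor than those of Fdps or Sqle did.

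Across the group the ratios were spread about as widely as probe sets of a single gene. The 16 probe sets above the floor in both pools had a median log2 ratio of -0.01 and an SD of 0.25, with 7 above and 9 below 0. The gene values had an SD of 0.25, against 0.34 over all genes. Of the 4 genes with several probe sets above the floor, 2 went the same way on all of them, Fdps and Dhcr7, and they went opposite ways from each other. The median over all genes was -0.02, and 917 genes (27.4%) lay within 0.1 of the median of the group. With 2 arrays no gene could be picked out as having a like pattern.

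**Figure D2:**
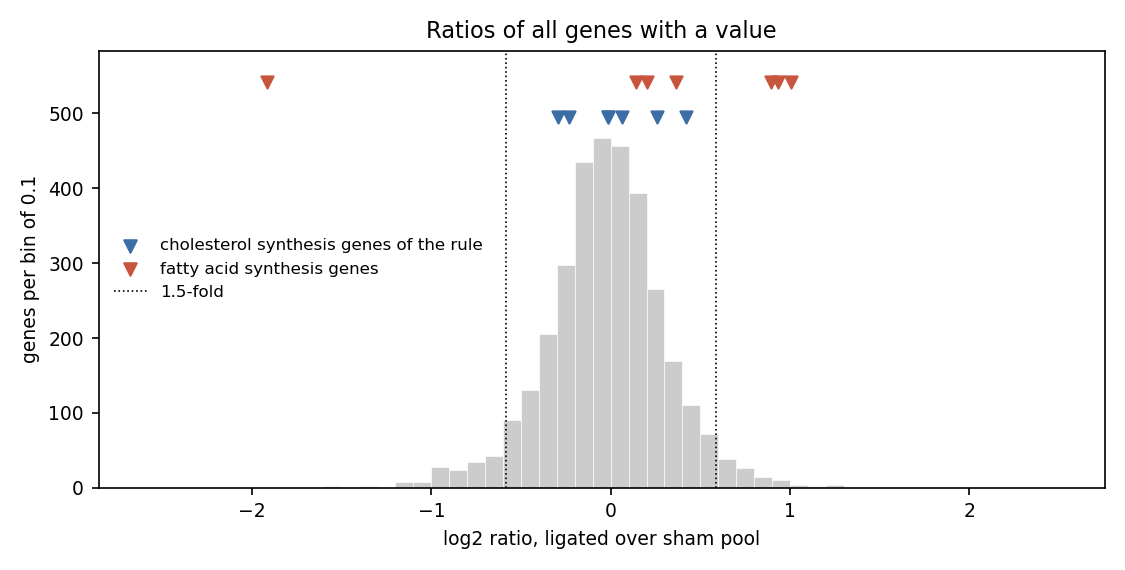
Histogram of the log2 ratio of ligated over sham for all 3351 genes with a value, with the cholesterol synthesis genes and the fatty acid synthesis genes as triangles above it and dotted lines at 1.5-fold. The triangles of the cholesterol synthesis genes stand between -0.29 and 0.42, with those of Idi1 and Fdft1 on top of each other, while 3 fatty acid synthesis genes stand beyond the upper line and 1 beyond the lower line.

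The rest of the pathway also lay on both sides of 0, over a wider range. In the list of other cholesterol synthesis genes, 8 of 17 symbols were on the array and 7 had a value, of which 4 were above and 3 below 0, with a median of 0.22. At 1.5-fold, where 3.13% of all genes with a value were higher and 5.04% lower, 0 were higher and 1 was lower. That gene was Mvd, which makes isopentenyl diphosphate, with 1042 in the sham pool and 651 in the ligated pool, a log2 ratio of -0.68. With the floor at the 60th percentile its value was -0.23.

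Msmo1, the sterol methyl oxidase that acts after Cyp51, was lower in the ligated pool on both probe sets. Its signals went from 5673 to 3655 and from 11481 to 8646, with a gene value of -0.52 or 1.44-fold lower. Nsdhl, the dehydrogenase that works beside it, had 1616 and 1893, a log2 ratio of 0.23. Hsd17b7, the reductase of the same complex, was above the floor in the ligated pool only, with 287.2 and 399, which is at least 1.21-fold higher.

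Lbr, a sterol reductase that is also a protein of the inner nuclear membrane, had 369.4 and 505.9, a log2 ratio of 0.45 close to the floor. Ebp, the sterol isomerase, was level at 2356 and 2294. Acat2, the thiolase that joins acetyl-CoA before the mevalonate steps, had log2 ratios of 0.56 and -0.11 on its overlapping probe sets, so its direction was not settled. Mvk, the mevalonate kinase gene, was below the floor on both probe sets in both pools. Over the 14 genes of the whole pathway with a value, 7 were above and 7 below 0 and the median was 0.02.

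**Figure D3:**
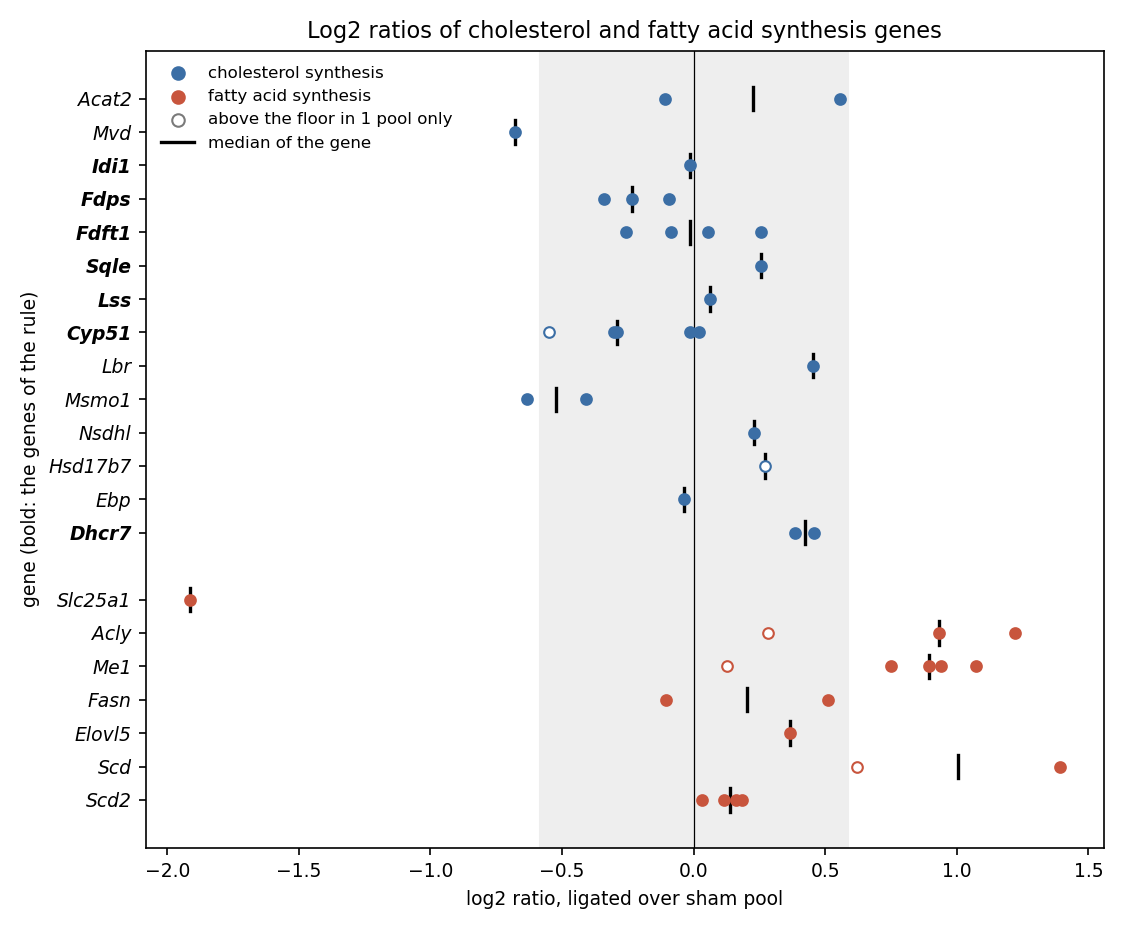
Log2 ratio of ligated over sham for each probe set (points) and gene (bars, median over its probe sets) of cholesterol synthesis, in pathway order, and of fatty acid synthesis, with ratios under 1.5-fold shaded and open points where 1 pool only was above the floor. In the upper block only the bar of Mvd, at -0.68, lies outside the shaded range, and in the lower block those of Slc25a1, Acly, Me1 and Scd do.

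Among genes that control or move cholesterol, the regulator genes Insig1 and Nr1h3 had the highest ratios. Of 30 symbols in this list 14 were on the array and 13 had a value, with a median of 0.08, 8 above and 5 below 0. At 1.5-fold, 2 genes were higher and 0 lower, against 3.13% and 5.04% of all genes with a value. Insig1 holds the sterol sensor in the endoplasmic reticulum when sterol is plentiful and is itself switched on by the factors it restrains. It had 1840 and 2501 in the sham pool and 3058 and 3408 in the ligated pool. The ligated pool was higher on both overlapping probe sets, with log2 ratios of 0.73 and 0.45 and a gene value of 0.59, just past the threshold. It was 0.45 on the probe set of highest level. Nr1h3, which encodes a liver X receptor that senses oxysterols, had 690.8 and 1062, a log2 ratio of 0.62, or 0.25 when the floor was set to the 60th percentile. Its relative Nr1h2 had 2187 and 2116 on the probe set above the floor.

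Among receptors and carriers, Vldlr, a lipoprotein receptor, had 4176 and 3762, a log2 ratio of -0.15. Scarb1, the receptor for high-density lipoprotein, had log2 ratios of -0.16, 0.51 and 0.67 on its 3 probe sets, which did not go the same way. Cd36, a scavenger receptor that also takes up fatty acids, had 0.43 and 0.16. Lrp2, a large endocytic receptor, had a gene value of 0.08 with 1 probe set above the floor in both pools.

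Inside the cell, Scp2, a sterol carrier, was level at 10262 and 10245 on the probe set above the floor. Lipa, the lysosomal esterase that frees cholesterol from lipoprotein, had -0.21, 0.23 and -0.03. Soat1, which esterifies cholesterol, had 0.04. Stard3, a protein of the late endosome that binds cholesterol, had -0.22 and -0.03, and Tspo, a protein of the outer mitochondrial membrane, had 0.19. Star, the carrier of cholesterol into mitochondria for steroid synthesis, was above the floor in the ligated pool only, with 314 and 424.6, at least 1.28-fold higher. Srebf1 was below the floor in both pools, at 197.9 and 146.3, and no probe set was named for Srebf2 or Scap.

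In the lists that use products of the chain, no gene value reached 1.5-fold under the reported settings. Of all genes with a value, 3.13% were higher and 5.04% lower by that factor, so this does not set the lists apart. The list of isoprenoid use, with the enzymes that attach farnesyl and geranylgeranyl groups and some proteins that carry them, had 10 genes with a value and a median of -0.07. The largest ratios among its genes above the floor in both pools were those of Fntb, the farnesyltransferase subunit, with -0.86 and -0.20 on its probe sets, the small GTPase gene Rhoa with 0.40, Coq3 of ubiquinone synthesis with -0.20 and Rabggtb with -0.17. The gene value of Fntb was -0.53, but it was past 1.5-fold, at -0.86, when the probe set of highest level was taken. The list of bile acid and oxysterol synthesis had 5 genes with a value and a median of 0.24, with 4 above and 1 below 0. Cyp27a1, the sterol 27-hydroxylase, had 0.27 and 0.68 on its probe sets, Hsd3b7 had 0.29, Cyp7b1 0.24 and Akr1d1 -0.38. Cyp7a1, the bile acid enzyme of the liver, was below the floor in both pools.

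In the fatty acid synthesis list, 9 of 18 symbols were on the array and 7 had a value, with 6 above and 1 below 0 and a median log2 ratio of 0.37. This median exceeded that of the cholesterol synthesis genes by 0.38, and by 0.21 to 0.53 over the alternative settings, a difference that has no test with 1 array per group. The ratios of the fatty acid genes spread far more widely, from -1.91 to 1.01. Acly, which supplies acetyl-CoA to both branches, had 2354 and 7250 in the sham pool and 5491 and 13822 in the ligated pool on its probe sets above the floor in both, and a gene value of 0.93. Me1, the malic enzyme that yields NADPH, had a gene value of 0.89 and was higher in the ligated pool on all 5 probe sets, 1 of them only above the floor there. Scd, the stearoyl-CoA desaturase, had 11225 and 29482 on one probe set, and 113.4 and 508.3 on the other, which gives a lower limit only. Its gene value of 1.01 ranged up to 1.78, with the floor at the 20th percentile or none.

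The ratios of Elovl5, Fasn and Scd2 lay inside the range of the cholesterol synthesis genes. Elovl5, an elongase, had 18649 and 24049, a log2 ratio of 0.37, next to 0.42 for Dhcr7. Fasn, the synthase, had 0.20 from probe sets that went opposite ways, and Scd2 had 0.14, both below the 0.26 of Sqle. The probe sets of Fasn had 0.51 and -0.11. Its gene value came to 0.51 with the floor at the 60th percentile or on the probe set of highest level. The acetyl-CoA carboxylase genes Acaca and Acacb were under the floor on both arrays. The gene of the citrate carrier, Slc25a1, which feeds both branches, had 2101 and 557, a log2 ratio of -1.91 on its only probe set, or -1.24 when the floor was set to the 60th percentile. Scd, Acly and Me1 were known to be high from earlier results on these arrays. The count of 3 and the higher median of the fatty acid synthesis list therefore give no independent support.

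**Figure D4:**
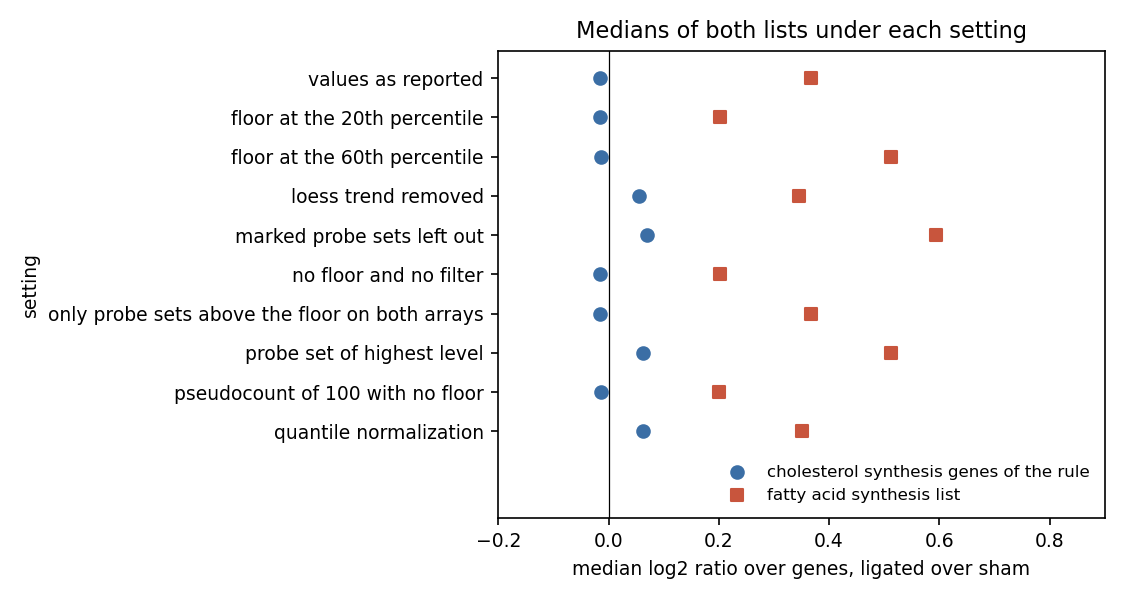
Median log2 ratio of the cholesterol synthesis genes (circles) and of the fatty acid synthesis list (squares) under the reported settings and 9 alternatives. There are no error bars because there is 1 array per group. Each median is over the genes with a value under that setting, so the genes counted can differ. The circles stay between -0.02 and 0.07 and the squares between 0.20 and 0.59, so the squares lie to the right under each setting. The fatty acid synthesis list holds Scd, Acly and Me1, known to be high beforehand, so this order gives no independent support.

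Markers of cell types were read in the same way. The 5 smooth muscle genes on the array were above the floor on all 10 probe sets, with summed signals of 441438 (sham) and 427586 (ligated). Of the 4 endothelial genes on the array, Icam2 was 2.18-fold lower in the ligated pool, with 796.1 and 364.7, Pecam1 had a log2 ratio of -0.10, and Vwf and Kdr were below the floor in both pools. The part of the endothelial markers in any difference was not tested. Adipocyte markers, which fat around the vessel would bring, had 7 genes with a value of 8 on the array, 5 above and 2 below 0. Their median log2 ratio was 0.28. None was past 1.5-fold, where 3.13% of all genes with a value were higher and 5.04% lower. The adipocyte markers had summed signals of 92829 (sham) and 112656 (ligated), 1.21 times as high in the latter, and Plin1 was below the floor. The summed signal of the cholesterol synthesis probe sets was 44444 and 41814. The highest adipocyte signals in the sham pool were those of the Lpl probe sets, up to 17029, and of Fabp4, Cfd and Lep. Their part in the difference between the 2 branches was not tested.

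The median of the 4 macrophage markers with a value was 0.33, and that of the 3 Schwann cell markers was 0.11. Schwann cells make much cholesterol for myelin. Of their markers Mbp and Prx were below the floor, while Pmp22, S100b and Mag had sham signals up to 34475, 9535 and 3172. The other probe set of Pmp22 had 665.6 in the sham pool, and S100b and Mag each had a probe set below the floor in both pools. The gene values of Pmp22, S100b and Mag were 0.16, 0.11 and -0.20, and the part of Schwann cells in any difference was not tested. Hepatocyte markers were below the floor on 16 of 22 probe sets in both pools, with a summed signal of 5434 and 4496. At 1.5-fold, 3.13% of all genes with a value were higher and 5.04% lower. Of the 6 hepatocyte genes with a value Cyp2c11 was past it. Its value came from 1 probe set above the floor in the sham pool only, with 886.5 and 184.3. Its log2 ratio was therefore -1.42 or further below 0. Of the markers of intestinal epithelium and of pancreas, 1 gene each had a value, Lct at -0.37 and Pnlip at -0.14. The cRNA amount noted in the file headers, with a question mark, was 17 µg (sham) and 12.5 µg (ligated), the fluidics modules were 2 and 1, and neither can be told apart from the operation.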

How the data were processed

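Signal intensities per probe set were used as deposited; how the authors scaled these intensity values and corrected their background is not stated in the sources used here. Array type, noted cRNA amount and fluidics module were read per the file headers as other deposited entries. Control probe sets (59 of 8799) were left out. Values under the 40th percentile of both arrays, 330.9, were set to it before log2. The platform annotation named a probe set when it gave 1 symbol (7018; 308 had several and 1473 none). Genes were summarised by the median log2 ratio over their probe sets above the floor in at least 1 pool; 1.5-fold was the threshold. With 1 array per group there was no test.

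The rule for named genes took all members, all measured genes of the sterol and fatty acid lists, and up to 4 of each other list; Hsd17b7, Star and the genes under the floor were named in addition, after their values were seen. The members and lists were chosen with earlier results of these data known. Overlapping probe set pairs were compared after their values were seen. Promoter windows came from RefSeq (GRCr8), found for 6 of 8 genes of the rule by gene identifier or symbol. The summary script was tested on simulated data. Python 3.11.15, pandas 2.3.3, numpy 2.4.6 and statsmodels 0.14.6 (lowess, fraction 0.3) were used. Alternatives were other normalizations, floors, a pseudocount of 100 and other rules for probe sets.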

Additional observations from a re-analysis of the deposited data

How the results depend on the processing

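Under 9 alternative settings, 63 results were recomputed, giving 549 values, of which 24 moved by at least 0.30, the SD of the scatter between probe sets, or, for counts, by over 1.5 times; no value past 1.5-fold changed sign. The median of the cholesterol synthesis genes ranged from -0.02 to 0.07, so its sign is not settled. It was 0.06 after quantile normalization, 0.05 after the loess, 0.06 when the brightest probe set was taken and 0.07 with probe sets left out whose name marks shared or overlapping probes. The count of these genes past 1.5-fold was 0 in each direction under each alternative. The fatty acid synthesis median ranged from 0.20 to 0.59, with 3 genes higher and 1 lower throughout. The median of all genes ranged from -0.02 to 0.01. Mvd (-0.23), Nr1h3 (0.25), Scarb1 (0.09) and Slc25a1 (-1.24) lost size with the floor at the 60th percentile, where a higher floor compresses low signals. Scd rose to 1.78 with no floor or a 20th percentile one. The median of the other cholesterol synthesis genes ranged from -0.04 to 0.24. No paired analysis was possible because each group has 1 array. Signals near the floor limit Dhcr7, Lbr, Lss and part of Cyp51.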
